A study of Mus musculus with 8 samples.

Results

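The genes described here are 10 of the 55536 in the count table: the small GTPases Arf1, Arf2, Arf3, Arf4, Arf5, Arf6, Arl1, Arl2 and Arl3, and Arl2bp, which encodes a protein that binds Arl2. They were taken by symbol, and all 10 were found once and were among the 16333 genes with enough counts to be tested. The family was chosen by the response of Arf1 and Arl2bp to Klf4 siRNA in these libraries, with their paralogs and partners set beside them. The values of the members after knockdown are therefore descriptions: no p-value is given for a member on that contrast, and counts of members past the threshold are not read as support. The rule for the members did not use the differences between batches, the interaction of batch and treatment or the order of levels among the members.

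The RNA came from alphaTC6 cells, a wild-type mouse cell line with the features of pancreatic alpha cells, 48 h after reverse transfection with RNAiMax Lipofectamine. All libraries are of that 1 line, and the controls were transfected too, with siScramble in place of a pool of siRNAs against Klf4, a zinc finger transcription factor. The study asked which genes Klf4 regulates in these cells, with 4 biological replicates a treatment, here called controls 1 to 4 (siScramble) and knockdowns 1 to 4 (Klf4 siRNA) by replicate number. Controls 1 and 2 and knockdowns 1, 2 and 4 belong to batch 1. Controls 3 and 4 and knockdown 3 belong to batch 2.

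ARF proteins are switches that bind membranes when loaded with GTP. Exchange factors load them, GTPase-activating proteins turn them off, and in the active form they recruit coats and lipid enzymes to the Golgi apparatus, endosomes and the plasma membrane. In endocrine cells the trans-Golgi, where ARF proteins recruit clathrin adaptors, is also where hormone granules bud. Arl2 and Arl3 are relatives with other tasks: Arl2 acts in the folding of tubulin dimers, and both release lipid-modified cargo from carrier proteins, Arl3 mainly in cilia.

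Arf1, Arf2 and Arf3 form class I of the family, and their proteins are nearly alike, so it was first asked whether reads of 1 gene could be counted for another. The first 120 bases of each coding sequence (GENCODE release M21, GRCm38) are shown for this reason, with capitals at the bases that differ from Arf1.
Arf1: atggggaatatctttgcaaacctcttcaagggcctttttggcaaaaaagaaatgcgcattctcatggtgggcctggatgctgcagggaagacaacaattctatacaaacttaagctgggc
Arf2: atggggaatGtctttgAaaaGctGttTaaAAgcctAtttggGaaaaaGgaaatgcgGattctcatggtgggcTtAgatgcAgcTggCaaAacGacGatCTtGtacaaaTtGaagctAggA
Arf3: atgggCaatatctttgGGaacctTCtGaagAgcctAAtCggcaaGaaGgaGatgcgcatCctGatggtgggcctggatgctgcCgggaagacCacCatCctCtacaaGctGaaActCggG
In this stretch 26 bases of Arf2 and 25 bases of Arf3 differ from Arf1. Over the whole coding sequence of 546 bases, Arf1 was identical to Arf3 at 83.7% and to Arf2 at 80.6% of bases. Arf4 and Arf5, which form class II, shared 78.6% of theirs. Arf6, the only class III member, had 62.1% to 68.5% identity with the other ARF genes. Arl2 and Arl3 shared 61.8%. No stretch of 50 bases in any annotated transcript of a member occurred in a transcript of another member.

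Some copies outside the family did share such stretches. Of the 50-base words of Arf1, 10.5% occurred in the processed pseudogenes Gm19587 or AC127331.2, and at 100 bases the share was 1.16%. Their raw counts were 35 to 58 and 56 to 95 in controls and 24 to 31 and 31 to 40 in knockdowns, at most 0.301% and 0.494% of the Arf1 count of the same library. Arl1 shared 10.7% of its 50-base words with the pseudogene Gm18541, which had at most 40 counts. Arl3 shared 4.81% and Arf3 0.228% of their 50-base words with other genes on the same strand, and none at 100 bases. Arl2bp and Arf2 shared no 50-base word with any gene. Exons of Arf4, Arf5, Arf6, Arl1 and Arl2 overlap genes on the opposite strand (Pde12 and Arf4os, Gcc1, Gm9887, Gm4925 and Batf2), and since the strand setting of the counting was not stated, their reads could not be fully told apart. Of these neighbours Gcc1 was the most abundant, at 55.9 CPM (the count relative to the library's total, scaled for composition) in controls and 56.9 CPM in knockdowns. Arf1, Arf2, Arf3, Arl2bp and Arl3 overlap no annotated gene.

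The promoters of Arf1 and its closest paralog Arf3 are shown because Klf4 is known to bind CACCC-type sequences. Capitals mark CACCC on either strand (CACCC or GGGTG) in the 300 bases from 250 before to 50 after the RefSeq start (GRCm38.p6), read along the gene's own strand.
Arf1, chr11:59228218-59228517, minus strand: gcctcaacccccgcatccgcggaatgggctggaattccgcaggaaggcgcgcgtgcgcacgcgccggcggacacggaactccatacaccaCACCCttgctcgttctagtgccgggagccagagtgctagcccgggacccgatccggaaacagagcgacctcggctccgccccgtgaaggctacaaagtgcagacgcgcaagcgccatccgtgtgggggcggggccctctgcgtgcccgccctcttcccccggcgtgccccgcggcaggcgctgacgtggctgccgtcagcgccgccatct
Arf3, chr15:98762943-98763242, minus strand: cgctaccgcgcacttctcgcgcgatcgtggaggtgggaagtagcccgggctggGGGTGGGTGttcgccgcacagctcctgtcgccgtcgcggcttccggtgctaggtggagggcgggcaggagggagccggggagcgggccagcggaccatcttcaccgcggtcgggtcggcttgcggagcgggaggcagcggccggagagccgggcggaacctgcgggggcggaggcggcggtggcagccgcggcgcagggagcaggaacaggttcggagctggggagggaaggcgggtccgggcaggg
The Arf1 window held 1 CACCC, within the longer word CCACACCC that starts 163 bases upstream of the start site. A further RefSeq start of Arf1, downstream of this one, had a window with no match to either word. Arf3 also has a further start, and each of its windows, which overlap, held 2 matches to CACCC and none to CCACACCC. The windows of Arf4, Arl1 and Arl3 and 1 of the 2 windows of Arf2 held 1 CACCC each. The windows of Arl2bp, Arl2 and Arf5 held none. Those of Arl2bp, Arl2 and Arl1 lie wholly within the annotated gene, past its first start. For Arl2bp the window runs from 94666841 to 94667140, while the gene begins at 94666600. The bases before the first annotated start of these genes were not searched. On either strand, the word GGGGCGG occurred 2 times in each Arf1 window and 3 times in those of Arf5 and Arl3, and was in 23.2% of all windows. Among 32851 windows of 300 bases, 57.5% held CACCC and 3.56% held CCACACCC on either strand. These matches describe the letters of the windows and were not related to binding.

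Library totals ran from 45954151 to 64185987 counts, and the 10 members together took 0.115% to 0.134% of them. Klf4 itself was measured at 39.2, 35.1, 46.3 and 46.8 CPM in controls 1 to 4 and at 12.5, 11.5, 19.8 and 18.8 CPM in knockdowns 1 to 4, with no overlap between the groups. Its log2 fold change came to -1.33, with standard error (SE) 0.17 (edgeR quasi-likelihood test with a batch term, Benjamini-Hochberg adjusted p = 0.00830), and the call ended without control 1 (adjusted p = 0.0524) and in batch 1 alone (0.104). All 12 alpha cell markers examined were detected in every library, and Gcg, the glucagon gene, had at least 52428 counts. Of 14 markers of other islet, blood, vessel, stromal, duct and acinar cells, Ins1, Ins2 and Prss1 had no counts in any library, and only Cd68 and Pecam1 had enough counts to be tested. The summed level of these 2 was 1.87 to 2.80 CPM in controls and 1.80 to 2.37 CPM in knockdowns. Over all genes tested, 1909 (11.7%) passed an adjusted p of 0.05 after Klf4 siRNA, 4.88% of the tested genes higher and 6.81% lower.

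Arf1 (ENSMUSG00000048076, chromosome 11, 59211412 to 59228270, minus strand, at most 5 exons), the main ARF of the Golgi and the activator of the COPI coat, had the largest log2 fold change of the 10. It was at 278.7, 281.0, 300.4 and 299.5 CPM in controls 1 to 4 and at 170.7, 183.6, 213.8 and 187.7 CPM in knockdowns 1 to 4. Every knockdown lay below every control, and the highest of them was replicate 3, the single one from batch 2. The mean went from 289.9 ± 11.6 to 188.9 ± 18.1 CPM (SD, n = 4 each). On the log2 scale the difference was -0.58 (SE 0.03), or 66.9% of the control level. Of the 16333 genes tested, 134 had a more negative log2 fold change. In this cell line culture, less RNA per cell cannot be told apart from fewer cells that express the gene.

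Arl2bp (ENSMUSG00000031776, chromosome 8, 94666600 to 94674425, plus strand, at most 6 exons) encodes the binder of Arl2, also known as BART, which recognises the GTP-bound form. It was measured at 187.9, 189.8, 194.4 and 194.5 CPM in controls 1 to 4. In knockdowns 1 to 4 the level was 126.7, 131.5, 145.0 and 134.2 CPM. These groups did not overlap either, and replicate 3 was again the highest knockdown. The mean went from 191.7 ± 3.29 to 134.3 ± 7.75 CPM (SD over 4 libraries each), which is a log2 difference of -0.49 (SE 0.03) and 71.1% of the control level. A more negative log2 fold change was found for 258 of the tested genes.

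Arf1 and Arl2bp were the only 2 of the 10 members whose groups did not overlap, and such separation was found for 10.5% of all genes tested. The adjusted p of the fit over all genes was under 0.05 for 5 members, 2 higher (Arf3 and Arl2) and 3 lower (Arf1, Arl2bp and Arf5), where over all genes tested the shares were 11.7%, 4.88% and 6.81%. Without control 1 or control 2 it was so for 3 members, Arf1, Arl2 and Arl2bp, without knockdown 1 for all but Arf5 of the 5, without the batch term for Arf1 and Arl2bp. Because the family was chosen on this contrast, nothing is read from these counts. The median log2 fold change of the 10 members was 0.025, against 0.000043 over all genes tested.

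**Figure D1:**
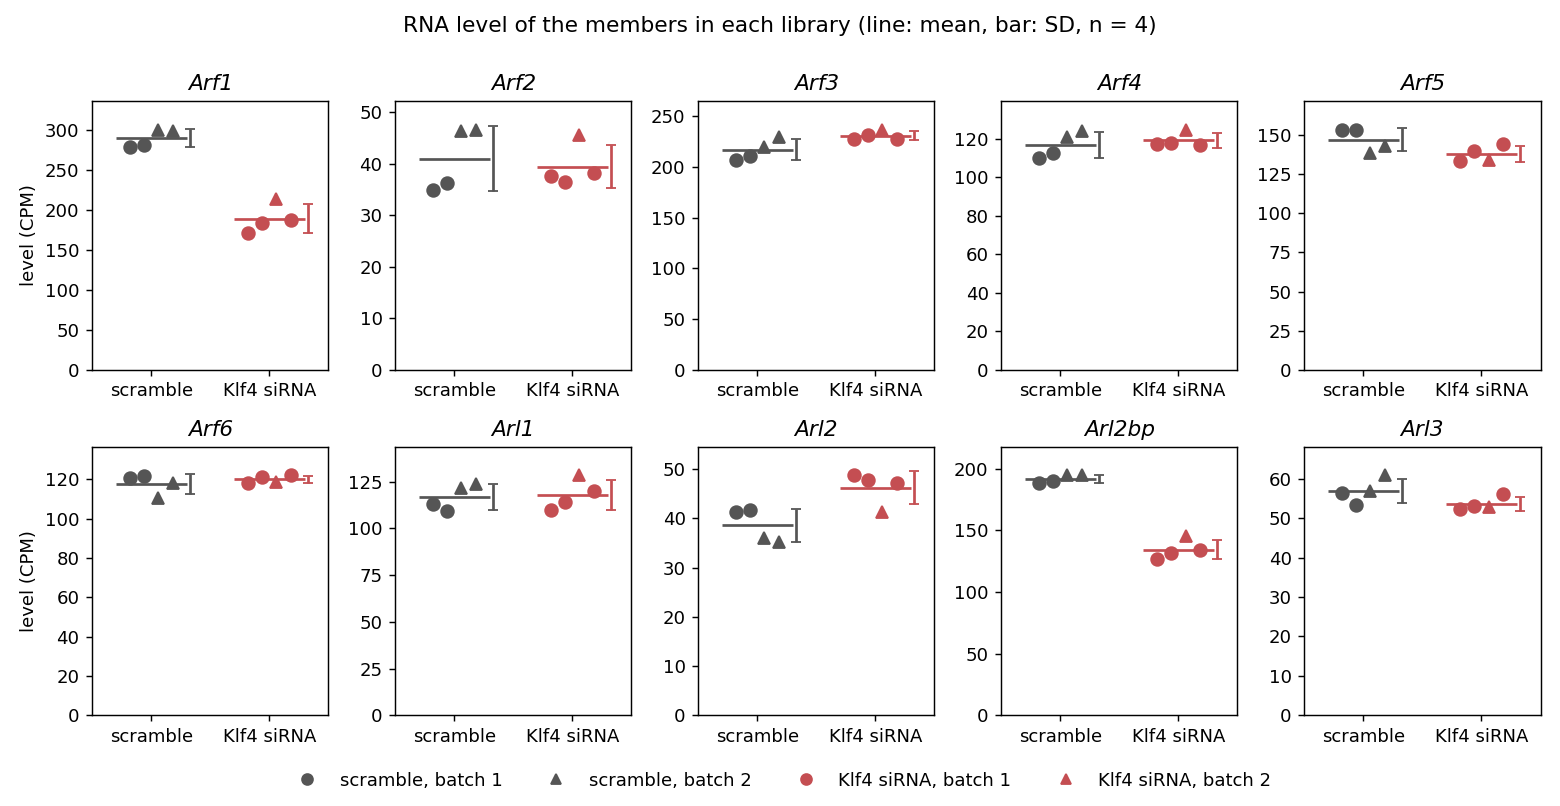
Level in CPM (vertical axes, from 0) of each member in the 4 controls (scramble) and 4 knockdowns (Klf4 siRNA), with circles for batch 1, triangles for batch 2, lines for means and bars for the SD. Arf1 and Arl2bp are the panels in which the groups stand apart; in the others the points of both groups overlap.

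The other class I genes were higher or near their control level in the knockdowns. Arf3, a Golgi ARF of the same class, was at 206.5, 210.9, 220.3 and 229.8 CPM in controls 1 to 4 and at 227.3, 231.7, 236.8 and 227.6 CPM in knockdowns 1 to 4. Control 4 lay above 2 of the knockdowns, whereas within batch 1 the groups were apart. The log2 difference was 0.11 (SE 0.03). Arf2, the least abundant of the class, had 34.9, 36.2, 46.3 and 46.6 CPM in controls 1 to 4 and 37.7, 36.5, 45.5 and 38.1 CPM in knockdowns 1 to 4. Its high libraries were those of batch 2 in both groups, and the log2 difference of 0.037 was about as large as its standard error of 0.036.

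Arf4 and Arf5, the class II genes that act in early secretory traffic, differed in direction. Arf4 had 109.8, 112.6, 120.8 and 123.8 CPM in controls 1 to 4 and 117.1, 117.8, 124.5 and 116.7 CPM in knockdowns 1 to 4, with overlapping groups and a log2 difference of 0.058 (SE 0.028). Arf5 had 152.9, 153.2, 138.2 and 143.1 CPM in the controls in the same order and 133.2, 139.7, 134.2 and 144.4 CPM in the knockdowns. The 2 controls of batch 1 were the high ones, and the log2 difference was -0.11 (SE 0.03). Arf6, which acts at the plasma membrane and in endosome recycling, had 110.5 to 121.6 CPM in controls and 118.3 to 121.9 CPM in knockdowns, a log2 difference of 0.013 (SE 0.030). Arl1, which recruits golgins to the trans-Golgi, ranged from 109.2 to 123.8 CPM in controls and from 109.7 to 128.4 CPM in knockdowns (log2 difference 0.052, SE 0.031).

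Arl2, the GTPase that Arl2bp binds, was at 41.3, 41.8, 36.0 and 35.3 CPM in controls 1 to 4. Knockdowns 1 to 4 had 48.8, 47.8, 41.3 and 47.2 CPM. The single overlap was that knockdown 3 lay just below control 2, of the other batch; within each batch all knockdowns were above the controls. The log2 difference was 0.21 (SE 0.03), with 0.21 in batch 1 and 0.21 in batch 2. Arl3, which also binds Arl2bp, had 56.4, 53.3, 56.9 and 60.8 CPM in controls 1 to 4. It had 52.4, 53.0, 52.9 and 56.2 CPM in knockdowns 1 to 4, and the log2 difference was -0.073 (SE 0.038). Within batch 1 it was -0.027 and within batch 2 -0.15, and without knockdown 3 it was -0.027. Among the other members with differences near 0, leaving out 1 library in turn gave 0.011 to 0.075 for Arf2 and -0.0096 to 0.024 for Arf6, and 0.034 for Arl1 without knockdown 4.

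**Figure D2:**
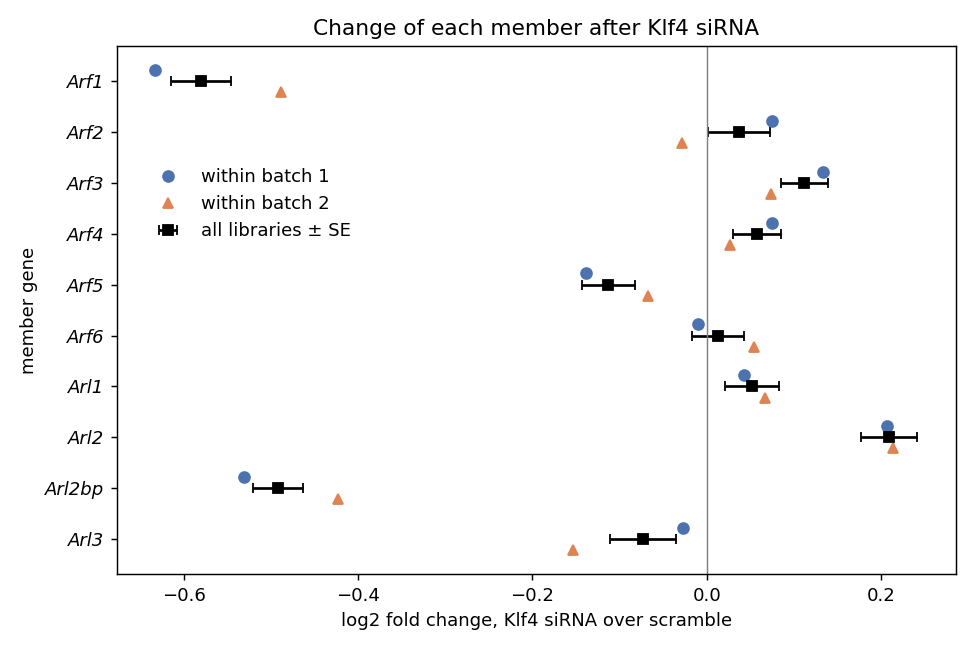
Log2 fold change of each member after Klf4 siRNA (horizontal axis), as squares with the standard error for all 8 libraries, circles for batch 1 and triangles for batch 2. Arf1 (-0.58) and Arl2bp (-0.49) lie far to the left of the other 8 members, whose squares lie between -0.11 and 0.21.

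The responses were set side by side between batches. The log2 difference of Arf1 was -0.63 within batch 1 and -0.49 within batch 2, and that of Arl2bp was -0.53 and -0.42. Arf3 had 0.13 and 0.073, and Arf5 had -0.14 and -0.068. Only Arf2 and Arf6 had opposite signs in the batches, at 0.075 and -0.028 and at -0.0099 and 0.054. The interaction of batch and treatment had an unadjusted p under 0.05 for 1 member, Arf1 (0.043), at 0.14 on the log2 scale (SE 0.07), but its adjusted p was 0.999 (edgeR quasi-likelihood test). Over all genes, 0 of 16333 (0%) passed the adjusted threshold for the interaction, with 540 at an unadjusted p under 0.05. With a single knockdown in batch 2, this test compares few libraries.

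Levels per kilobase of annotated exon (CPM per kb, with all exons of a gene joined) allow the members to be compared with each other. In controls Arf1 was the highest at 138.8 ± 5.56 CPM per kb, followed by Arf5 at 77.0 ± 3.90 and Arf6 at 76.7 ± 3.30 (SD, n = 4 each). Arl2bp followed at 68.4 ± 1.18, Arl1 at 49.4 ± 2.88, Arf3 at 45.0 ± 2.15 and Arf4 at 32.4 ± 1.83 CPM per kb. The lowest were Arl3 at 22.8 ± 1.23, Arf2 at 13.7 ± 2.11 and Arl2 at 11.2 ± 0.98 CPM per kb. The ranges of neighbours overlapped for Arf5 and Arf6, for Arl1 and Arf3 and for Arf2 and Arl2. The first and the last of these pairs changed places in 1 of 4 controls, whereas Arl1 was above Arf3 in all 4. For the other neighbours the ranges in controls were separate. A gene with long exons that these cells do not use is understated on this scale.

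After Klf4 siRNA, Arf1 still had the highest level per kb in all 4 libraries, at 90.4 ± 8.65 CPM per kb (SD, n = 4). Arl2bp, which was the fourth in every control, was the fifth or sixth in the knockdowns. There it had 47.9 ± 2.76 CPM per kb, beside 47.9 ± 0.92 for Arf3 and 49.9 ± 3.38 for Arl1. The summed level of Arf1 to Arf6 was 377.3 to 392.8 CPM per kb in controls and 320.8 to 348.8 CPM per kb in knockdowns. Without Arf1, the sum of the other 5 was 244.8 ± 4.40 and 244.5 ± 3.72 CPM per kb (SD, n = 4 each).

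The share of Arf1 in the pool of the 6 ARF RNAs was 35.4%, 35.3%, 37.5% and 36.5% in controls 1 to 4 and 25.5%, 26.4%, 29.3% and 26.6% in knockdowns 1 to 4. The shares of Arf3 were 11.3% to 12.1% and 14.0% to 14.7%, and those of Arf6 were 18.8% to 20.9% and 22.1% to 24.0%. The ratio of Arf1 to Arf3 per kb was 3.09 ± 0.06 in controls and 1.89 ± 0.15 in knockdowns (SD, n = 4 each). For Arl2bp and Arl2 the ratio was 6.17 ± 0.64 and 3.61 ± 0.49. Ratios of Arl2bp to Arl2 were 5.61 and 5.62 in the controls of batch 1 and 6.66 and 6.79 in those of batch 2. These shares and ratios restate the differences of Arf1 and Arl2bp within each library and add no test.

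**Figure D3:**
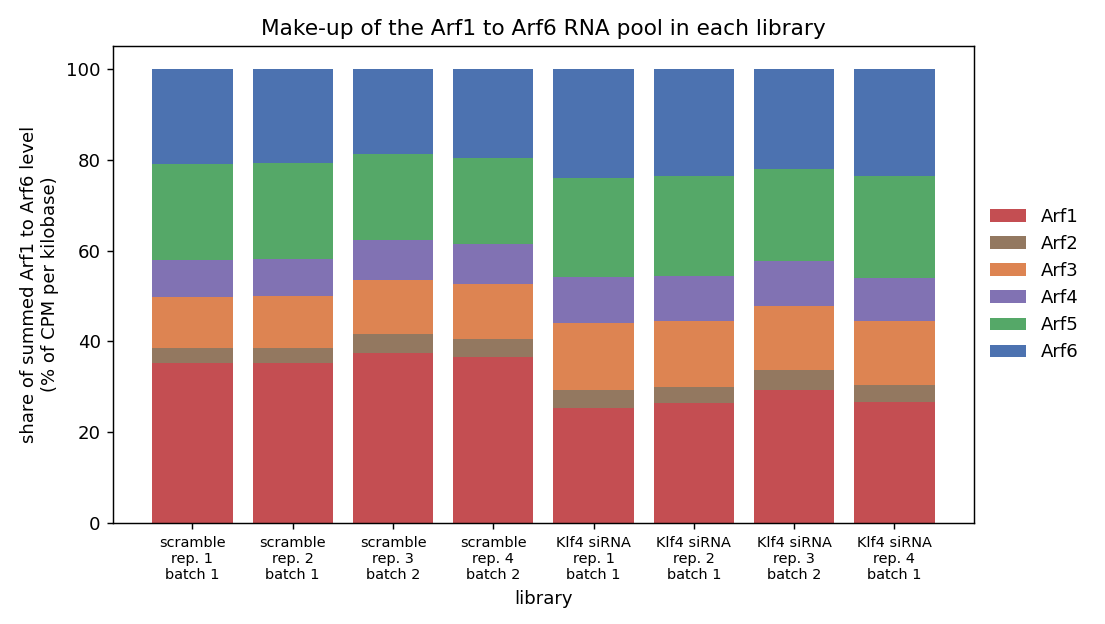
Share of each ARF gene (vertical axis, % of the summed CPM per kb of Arf1 to Arf6) in each of the 8 libraries. The Arf1 part at the bottom is 35.3% to 37.5% of the bar in controls and 25.5% to 29.3% in knockdowns.

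Genes with a pattern like that of Arf1 or Arl2bp over the 8 libraries were sought among those with a mean of at least 10 CPM, with the mean of each batch taken out of the log2 CPM. Of 9346 such genes, the closest to Arf1 was Arl2bp (Pearson's r = 0.999), followed by Kpna1, an importin, and Ptdss1, a phosphatidylserine synthase (0.999 and 0.998). With batch means left in, Kpna1 (0.997) was closer to Arf1 than Arl2bp (0.996). Arf1 was in turn the closest to Arl2bp, followed by Smim14 and the kinase gene Nek7 (both 0.999). All 4 other genes were lower after Klf4 siRNA, by log2 differences of -0.41 to -0.48. Arl2 stood at the other end, with r = -0.987 to Arf1 and ranked 9338 of 9346. The 8 points share 2 treatment groups, so r describes mainly the step between them, and the choice of Arf1 and Arl2bp by that step is part of it.

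The difference between batches was tested for the members in the same fit, as a contrast on which they had not been chosen. Of the 10 members 8 passed the edgeR adjusted threshold, against 32.7% of all genes tested. Of these, 6 were higher in batch 2 (16.8% of all genes were) and 2 lower (15.9%). Arf2 had the largest difference, at 0.34 on the log2 scale (SE 0.04, edgeR adjusted p = 2.69e-07), and its batch 2 libraries, at 45.5 to 46.6 CPM, lay above all of batch 1. Arl1 was higher by 0.15 (SE 0.03, edgeR adjusted p = 0.00102). Arl2 was lower by a log2 difference of -0.22 (SE 0.03, edgeR adjusted p = 3.62e-05). These 3 calls held under every alternative that was run.

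Arf1 was higher in batch 2 by 0.16 on the log2 scale (SE 0.03, edgeR adjusted p = 0.00135), which without knockdown 3 was 0.10 and did not pass (0.107). Arf4 was higher by 0.12 (SE 0.03, adjusted p = 0.00330), but by 0.078 (0.0689) where library size alone was used for scaling. For Arf3 (0.083), Arf5 (-0.092) and Arl2bp (0.087) the adjusted p was 0.0280, 0.0290 and 0.0301. Arf3 did not pass without control 1, 2 or 4 (adjusted p = 0.147, 0.0872 and 0.128), and Arf5 did not without control 1, 2 or 3 (0.0936, 0.0998 and 0.124). Arl2bp did not pass without control 1 (0.0611) or without knockdown 1, 2 or 3 (0.0591, 0.0520 and 0.473), and its difference without knockdown 3 was 0.042. With library size alone Arf3 and Arl2bp had 0.045 and 0.049 and did not pass (0.266 and 0.285). Both also missed the threshold with no filter on low counts (0.0885 and 0.0625), Arl2bp with DESeq2 (0.0587) and Arf5 with a filter at a mean of 5 CPM (0.0550). Arf6 and Arl3 did not pass, at log2 differences of -0.059 and 0.046 with standard errors of 0.031 and 0.039, but with library size alone Arf6 did, at -0.098 (edgeR adjusted p = 0.0278).

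The genes around the members were described by 7 lists made by role, with 115 genes, 104 of them tested. The lists were chosen with earlier results of these data known, so their shares are a description. After Klf4 siRNA 16 (15.4%) passed the edgeR adjusted threshold, 8 higher and 8 lower, against 11.7% of all genes tested. The median log2 fold change was 0.0019. Without the batch term 3 of them passed (Arl5b, Agfg2 and Plekha3).

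Among 20 other GTPases of the family, 16 were tested, and 3 rose and 1 fell (median log2 fold change 0.027), or 25% of the list against 11.7% of all genes tested. Arl5b, a trans-Golgi GTPase, rose most, from 17.7, 18.5, 18.8 and 17.1 CPM in controls 1 to 4 to 24.5, 25.9, 23.8 and 24.9 CPM in knockdowns 1 to 4. Both groups stood apart, and the log2 fold change was 0.45 (SE 0.05, edgeR adjusted p = 1.74e-06). Its paralog Arl5a rose by 0.15 (adjusted p = 0.0133). Its call ended without control 1 (log2 fold change 0.12, adjusted p = 0.129), without knockdown 3 (0.16 and 0.0702) and in batch 1 alone (0.15 and 0.0569). Arl4c fell, by a log2 fold change of -0.21 (adjusted p = 0.00575), which without the batch term was -0.45 and did not pass (0.619). Arl10 rose by 0.22 (adjusted p = 0.0406). Its call ended without control 1, 2 or 4 (adjusted p = 0.117, 0.169 and 0.0666) and without knockdown 1, 2 or 3 (0.0921, 0.107 and 0.133), while its log2 fold change there was 0.19 to 0.23. It also ended with library size alone (0.0761), with limma-voom (0.0625) and in batch 1 alone (0.149). The lysosomal Arl8b and Arl8a were the most abundant of the list, at 255.9 and 248.1 CPM in controls, and had log2 fold changes of 0.056 and -0.0038 that did not pass.

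Of 15 exchange factors 13 were tested, and 3 fell while none rose (median log2 fold change -0.0063). This is 23.1% of the list, against 11.7% of all genes tested. Iqsec1, also called BRAG2, had 108.1, 109.2, 132.6 and 136.1 CPM in controls 1 to 4 and 95.6, 92.0, 114.7 and 96.0 CPM in knockdowns 1 to 4, a log2 fold change of -0.21 (SE 0.03, edgeR adjusted p = 3.46e-05). Its relative Iqsec3 and the exchange factor Psd3 had log2 fold changes of -0.45 and -0.38 (adjusted p = 4.74e-05 and 0.000224). For Iqsec3 the controls were at 25.6 and 24.1 CPM in batch 1 and at 12.1 and 11.2 CPM in batch 2, so its groups overlap when the batches are pooled. Without the batch term its log2 fold change was -0.25 and did not pass (adjusted p = 0.795). The large Golgi exchange factors Arfgef1 and Arfgef2, which load Arf1 at the trans-Golgi, were the most abundant, at 293.5 and 277.9 CPM in controls, and did not pass (log2 fold change 0.028 and -0.0063).

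Among 20 of 23 GTPase-activating proteins that were tested, 1 rose and 3 fell (median -0.022), or 20% of the list against 11.7% of all genes tested. Agfg2 fell (log2 fold change -0.24, edgeR adjusted p = 0.00122), whereas Smap1 rose by 0.15 (0.00172). Agap1, the most abundant of the list at 519.6 CPM in controls, had -0.13 (adjusted p = 0.00310, and 0.0516 without knockdown 3). Arap1 had -0.20 (adjusted p = 0.0106, but 0.0527 and 0.104 without control 1 or 2), and without the batch term it had -0.12 (0.728). Agfg1, the next most abundant, did not pass at -0.019, and with 1 library left out it had -0.045 to 0.0012.

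ARF proteins recruit the COPI coat and clathrin adaptors. None of the 9 subunits of the COPI coatomer passed with edgeR, and their log2 fold changes ran from -0.015 to 0.089. Copg1 and Copa were the most abundant, at 519.8 and 505.0 CPM in controls. Copa, at 0.077 on the log2 scale, missed the threshold (edgeR adjusted p = 0.0596) and passed with DESeq2 (0.0195), limma-voom (0.0355), a filter at a mean of 5 CPM (0.0437) and without knockdown 4 (0.0496). Of 17 tested clathrin adaptor genes among 18 listed, Ap1s3 rose by 0.26 (edgeR adjusted p = 0.00155) and Ap3m2 had -0.26 (0.00649, and 0.0530 without control 2). These 2 calls are 11.8% of the list, against 11.7% of all genes tested. The abundant subunits Ap3d1 and Ap1g1 did not pass, at -0.052 and 0.010. Among 15 of 16 other effectors of ARF proteins and Arl1 that were tested, 2 rose: Plekha3, which encodes the lipid-binding protein FAPP1, by 0.19 (adjusted p = 0.000380) and the golgin gene Golga1 by 0.11 (0.0424), or 13.3% of the list against 11.7% of all genes. The Golga1 call ended without control 1, 2 or 4 (0.257, 0.103 and 0.0574) and without knockdown 1, 2 or 3 (0.0980, 0.103 and 0.0874), and also with library size alone (0.130), DESeq2 (0.0557), limma-voom (0.0660) and in batch 1 alone (0.103). Pip5k1c and Golga4, the most abundant of this list, did not pass at -0.042 and 0.037.

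All 14 regulators and partners of Arl2 and Arl3 were tested, among them the tubulin cofactors and the cargo carriers Pde6d, Unc119 and Unc119b. In the fit with the batch term, Elmod2, which encodes a GTPase-activating protein for Arl2, was the single gene that passed, or 7.14% of the list against 11.7% of all genes. It had 18.6, 17.8, 14.8 and 13.6 CPM in controls 1 to 4 and 25.5, 26.5, 18.0 and 22.1 CPM in knockdowns 1 to 4. Knockdown 3 lay below 1 control of batch 1 and above both controls of its own batch. The log2 fold change was 0.40 (SE 0.06, edgeR adjusted p = 7.87e-05). The median of the list was -0.022, and Stat3 and Unc119b, the most abundant, had log2 fold changes of -0.057 and -0.026 that did not pass. With 1 library left out these ran from -0.12 to 0.017 and from -0.040 to -0.0016.

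**Figure D4:**
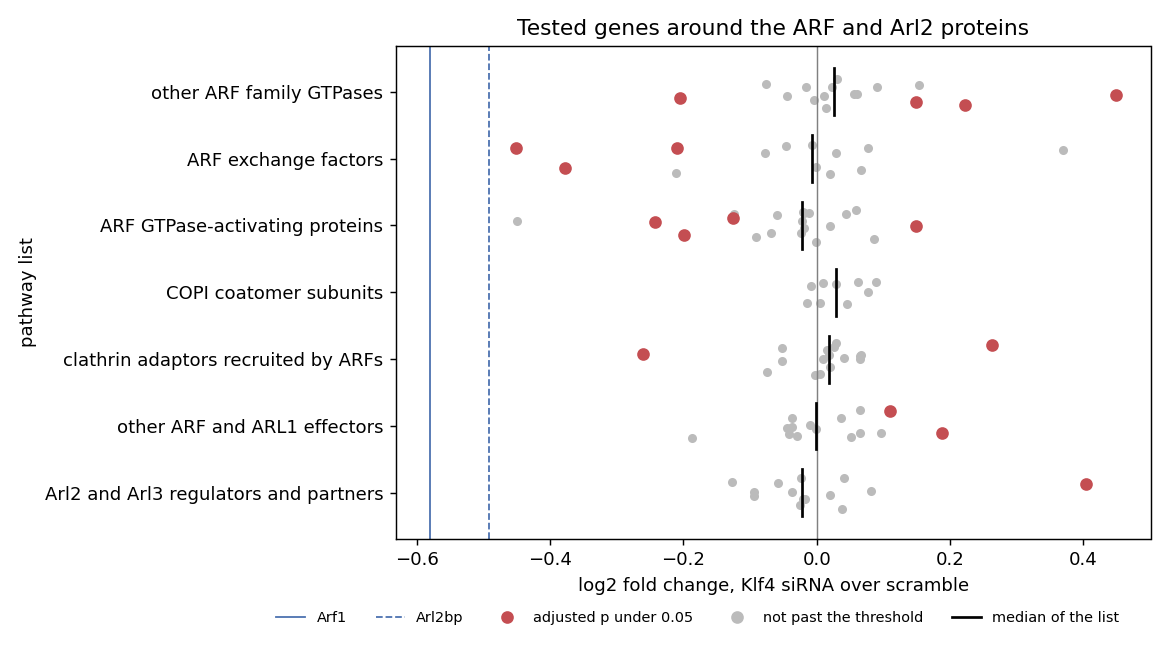
Log2 fold change after Klf4 siRNA (horizontal axis) of the 104 tested genes of the 7 lists, with red points for an edgeR adjusted p under 0.05, black bars for list medians and blue lines for Arf1 (solid) and Arl2bp (dashed). The list medians lie between -0.022 and 0.028, and no gene of these lists lies as far to the left as Arl2bp.

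Among the alpha cell markers, 6 of 12 passed the edgeR threshold after Klf4 siRNA, 2 higher and 4 lower, against 11.7% of all genes tested. Among them Gcg and Chgb fell (log2 fold change -0.18 for each) and Neurod1 and Pax6 rose (0.41 and 0.10). Single libraries ended the calls of Gcg (adjusted p = 0.0523 and 0.0931 without control 1 and knockdown 3) and Pax6 (0.0548 and 0.180 without controls 1 and 2, 0.0804 and 0.119 without knockdowns 1 and 3). In batch 1 alone Gcg and Pax6 did not pass either (0.143 and 0.150), nor did Pax6 with library size alone (0.0547). Without the batch term Gcg and Chgb had -0.88 and -0.34 and did not pass (0.756 and 0.560). The summed level of the 12 markers ran from 9835 to 18042 CPM in controls and from 9455 to 16372 CPM in knockdowns. Between batches Gcg differed by 2.80 on the log2 scale (SE 0.04, edgeR adjusted p = 2.17e-17), higher in batch 2. The part of these marker differences in the values of the ARF members was not tested.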

How the data were processed

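The kit was Tecan's Universal Plus for mRNA, per the labels' protocols, which also speak of islets although each sample is labelled as alphaTC6. The authors deposited raw whole-number counts per gene with 1 column per library. STAR, featureCounts, DESeq2, FastQC and the build mm10 are named, per the submitters' processing notes, and trimming with cutadapt only in the table's title. Versions and the use of strand are not given in the sources used here. All 55536 identifiers and symbols matched GENCODE M21 (GRCm38), the same build as mm10. Promoters came from RefSeq (GRCm38.p6), matched by symbol for 9 of the 10 members; Arf6 had no entry. 

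The 16333 genes kept by filterByExpr were fitted with edgeR 4.0.16 (R 4.3.3): TMM scaling (factors 0.964 to 1.02), robust quasi-likelihood dispersions, terms for batch and treatment, 5 residual degrees of freedom, two-sided tests and Benjamini-Hochberg adjustment over all tested genes at 0.05. The submitters' design text names edgeR with batch correction. Each standard error (SE) was obtained by dividing the size of the log2 fold change by the root of its F. Within-batch values compare mean log2 CPM (prior count 2). The test was tested on simulated data, where recovery of changed genes was required for a mean of at least 5 CPM, a limit set after genes over the whole range fell short of the requirement; all members lie above it. Alternatives were other scalings, filters, DESeq2 1.42.0, limma-voom 3.58.1, other batch terms, a replicate block and each library left out. Counts hold any PCR duplicates, so errors come from the spread between libraries; no pair of libraries agreed within sampling noise (chi-square per degree of freedom at least 10.2). Members and lists were chosen with earlier results of these data known. Named were Klf4, the members, up to 4 called genes per list by adjusted p, the 2 most abundant per list, 4 alpha cell markers that passed (the others that passed are not reported here) and the 3 genes most like Arf1 and Arl2bp; the markers were added to the rule's genes after their values were seen.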

Additional observations from a re-analysis of the deposited data

Results flagged for a closer look

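In 92 groups of 4 libraries (46 genes, 2 treatments), the highest or lowest library was examined for a gap to the nearest library that was larger, as a share of the group's range, than Dixon's critical value for 4 values. Chance passes this in about 1 of 20 groups of like libraries, or 4.6 here. Each treatment group mixes libraries of both batches, so 4.6 is no baseline for these groups. In all, 9 groups passed. For 6 of these the library was knockdown 3, the single Klf4 siRNA library of batch 2. Among the members it was highest for Arf4, at 124.5 CPM against 116.7 to 117.8 CPM (gap 0.86 of the range). It was also highest for Arl4c (0.96), Copa (0.853), Gcg (0.975) and Chgb (0.922) and lowest for Agap1 (0.889). Knockdown 4 was highest for Arl3, at 56.2 CPM against 52.4 to 53.0 CPM (0.841), and for Arl5a (0.849). Control 3 was highest for Agfg1 (0.85).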

How the results depend on the processing

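Over 17 alternatives the log2 fold changes of Arf1 and Arl2bp were -0.63 to -0.55 and -0.53 to -0.47; both were chosen on this contrast, so these ranges are a description and no sign of stability. Without the batch term 409 genes passed after Klf4 siRNA (140 higher, 269 lower), in batch 1 alone 1232 (501 and 731), and with the replicate block in place of batch 1220 (682 lower), against 1909. Leaving out each library in turn gave 934 to 2021 genes, with 330 to 893 higher and 604 to 1128 lower; the counts were 934 and 1012 without controls 1 and 2 and 1232 without knockdown 3. The number of members past the threshold was 2 without the batch term, 3 with the replicate block and 3 to 5 with a library left out, where it was 3 without control 1 or 2. For the listed pathway genes it was 3 and 10, against 16. Between batches, 5 to 8 members passed with a library left out, and 5 without control 1. Without the batch term and with the replicate block, the log2 fold change was -0.056 and -0.049 for Arf2, 0.027 and 0.028 for Arf4, and 0.26 in both for Arl2. That of Arl1 ran from 0.014 to 0.071 over the 17 alternatives. The interaction passed for 17 genes without a filter and for 0 to 13 with a library left out, 13 without control 3; leaving out knockdown 3 leaves no interaction to fit. Among abundant pathway genes that did not pass, the sign also changed with a library left out for Arl8a (-0.012 to 0.0081), Arfgef2 (-0.020 to 0.0074) and Ap1g1 (-0.0045 to 0.027), and the value moved by over 1.5 times for Arl8b (lowest 0.035), Arfgef1 (0.012 to 0.049) and Golga4 (lowest 0.024). The cause of these moves was not tested. To examine the pairing, each library's difference from its group mean was correlated with that of the other library of its number, which gave 0.49, 0.42, 0.72 and -0.34, and -0.00053, -0.040, -0.30 and 0.12 with batch means removed. Not every pair was above 0.1, so the numbers were not taken to pair the libraries. The replicate block left out batch as a term. Under the block, Stat3 passed at -0.15 (adjusted p = 0.00712), while the calls of Arl4c (-0.45, 0.356), Arl5a (0.15, 0.0683), Arl10 (0.24, 0.0574), Iqsec3 (-0.20, 0.739), Agap1 (-0.088, 0.113), Arap1 (-0.11, 0.201), Ap1s3 (0.19, 0.124), Gcg (-0.82, 0.552) and Chgb (-0.33, 0.297) ended. The lowest mean of a member was 38.6 CPM; whether depth limits differences as small as theirs was not tested.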

Other observations

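Several genes around the ARF family differed between the batches by more than the members did. Of the 104 tested genes of the 7 lists, 46 passed the edgeR adjusted threshold between batches, where 32.7% of all genes tested did. The largest differences among those with a mean over 5 CPM were those of Iqsec3 (log2 difference of batch 2 over batch 1 -0.99, standard error 0.07, adjusted p = 3.53e-10), Arl4c (0.97, standard error 0.05, adjusted p = 1.50e-12), Elmod1, which encodes a GTPase-activating protein of the same family as Elmod2 (0.95, standard error 0.07, adjusted p = 3.98e-10), and Arl4a (0.65, standard error 0.04, adjusted p = 1.66e-10). Elmod1 and Arl4a were named after their values were seen. What set the batches apart is not stated in the labels.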
